A study of Mus musculus with 5 samples.

Results

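MicroRNA genes were taken from an array comparison of mouse sciatic nerve with and without the transcription factor gene Ebf2, and were split by where they lie in the genome. A probe set counted as a microRNA gene where the platform annotation gave it a single symbol that starts with Mir and a digit or with Mirlet7, which held for 133 of the 10361 probe sets in the table, 1 for each of 133 genes. Of these, 33 lie on chromosome 12 between Dlk1 and Dio3, the cluster that holds Mir379, and 100 lie elsewhere. The 100 include 3 long host transcripts whose symbols match the rule (Mir17hg, Mir99ahg and Mir100hg), which leaves 97 hairpin genes outside the cluster. RefSeq places 61 microRNA genes between Dlk1 and Dio3, and 28 of them were not analysed here. Every one of the 133 genes had a value on all 5 arrays.

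The nerves came from pups at postnatal day 2 on a C57Bl6N background, born to heterozygous Ebf2+/- parents. Wild-type (WT) nerves made up 3 pools, numbered 1, 9 and 11, and Ebf2-/- knockout (KO) nerves 2 pools, numbered 2 and 4, with 12 nerves and 1 array for each. The labels name neither the allele nor how many animals or litters gave the nerves of a pool. Values below are always in the order WT 1, 9, 11 and KO 2, 4. Total RNA was measured, and a pool holds every cell type of the dissected nerve, so that fewer cells of a type and less RNA per cell cannot be told apart. The WT pools read 11.55, 11.14 and 11.40 for Ebf2 itself, and the KO pools read 9.25 and 8.74 (log2 fold change -2.37, SE 0.19, limma adjusted p = 4.97e-07). Among markers of Schwann cells, the glia of the nerve, Sox10, Erbb3 and Egr2 were measured, at log2 levels from 9.75 to 12.75.

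MicroRNAs are short RNAs that pair with messenger RNAs, mainly through the seed at bases 2 to 8 of the mature strand, and lower their translation or stability. They are cut in 2 steps, by Drosha and Dicer, out of a hairpin in a longer primary transcript, so hairpins that lie close together are often made from a shared transcript. The Dlk1-Dio3 region is imprinted: the long noncoding RNAs Meg3, Rian and Mirg and the microRNAs along them are expressed from the maternal chromosome, and Dlk1, Rtl1 and Dio3 from the paternal one. Its microRNAs are known for high levels in brain, placenta and developing muscle. The probe sets lie on the hairpin genes, so a value reads any RNA that holds the hairpin sequence. It gives no separate level for a mature microRNA or for either of its arms.

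The mature sequences of the genes that the results turn on are given first, from RefSeq (build GRCm38.p6), 5′ to 3′, with the seed in capitals. Those of Mir379 and its neighbours Mir411 and Mir380 are shown because Mir379 had the largest difference in the cluster while its closest relative in sequence, Mir411, had a small difference. Those of Mir300, Mir381, Mir323, Mir376b and Mir376c show a further pair of relatives with unequal differences, another large difference, and a pair with a shared seed. Those of Mir15a and Mir16-1 stand for the largest difference outside the cluster.
miR-379-5p: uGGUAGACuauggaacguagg
miR-379-3p: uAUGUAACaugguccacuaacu
miR-411-5p: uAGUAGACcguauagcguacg
miR-411-3p: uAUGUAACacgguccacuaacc
miR-380-3p: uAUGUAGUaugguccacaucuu
miR-300-3p: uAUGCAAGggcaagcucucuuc
miR-381-3p: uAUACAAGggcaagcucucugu
miR-323-3p: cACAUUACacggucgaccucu
miR-376b-5p: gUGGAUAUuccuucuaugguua
miR-376c-5p: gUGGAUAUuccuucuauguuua
miR-15a-5p: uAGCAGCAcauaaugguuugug
miR-16-5p: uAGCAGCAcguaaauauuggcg

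The hairpin of Mir379 has 66 bases at chr12:109709060-109709125 on the plus strand of GRCm38.p6, shown here with both mature arms in capitals.
Mir379 hairpin: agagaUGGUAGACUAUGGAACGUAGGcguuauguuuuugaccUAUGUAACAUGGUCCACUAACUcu
The 3p arms of Mir379 and Mir411 share the seed AUGUAAC and are identical at 20 of 22 bases, with U10C and U22C going from miR-379-3p to miR-411-3p, positions counted from 1 at the 5′ end. Their 5p arms are identical at 14 of 21 bases and differ inside the seed by G2A. The 3p arms of Mir300 and Mir381 are identical at 19 of 22 bases and differ in the seed by G4A. Over the 33 genes the 62 mature sequences used here had 60 different seeds, and 2 seeds were shared by 2 genes each, AUGUAAC by Mir379 and Mir411 and UGGAUAU by Mir376b and Mir376c. For Mir376c, Mir485, Mir487b and Mir539 only a single arm was used, so further shared seeds may be missed. By these sequences the cluster is a group by position and hardly by seed.

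All 33 measured microRNA genes of the Dlk1-Dio3 cluster had a lower mean in the KO pools, from a log2 fold change of -0.03 (Mir666) to -1.24 (Mir379), with a median of -0.48. Each log2 fold change subtracts the WT mean from the KO mean of the log2 levels, so negative values are lower in KO. Among the 100 genes outside the cluster 55 had a lower mean, with a median of -0.03, and among all probe sets 50.2% did, with a median of -0.002. A log2 fold change of -0.5 or less was found for 12 of the 33 genes and 4 of the 100, against 4.1% of all probe sets. These counts moved with single pools: they were 4 and 1 without KO pool 4 (2.12% of all probe sets), 23 and 10 without KO pool 2 (11.3%), 7 and 3 without WT pool 9 (2.8%), and 22 and 5 without WT pool 11 (5.07%). Of the 39 probe sets of the table at -1 or less (0.376%), 3 were genes of the cluster, namely Mir379, Mir300 and Mir323, and 0 were without KO pool 4, 1 without WT pool 9 and 7 without KO pool 2. Since the genes were chosen with earlier results known, these counts describe the pools and carry no test of the cluster as a group.

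**Figure D1:**
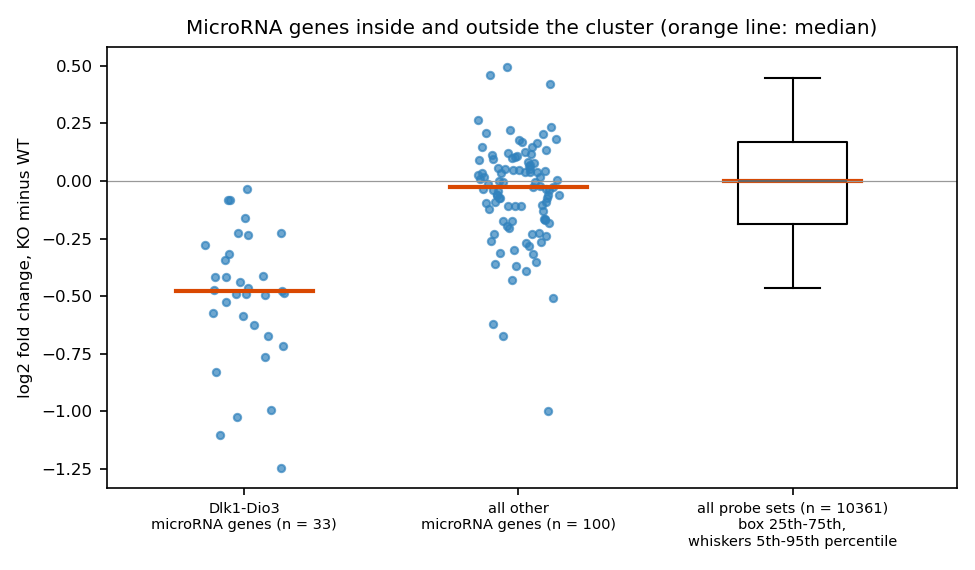
Log2 fold change, KO minus WT (vertical axis), for the 33 microRNA genes of the Dlk1-Dio3 cluster and the 100 others, 1 point a gene, beside the distribution over all 10361 probe sets; orange lines are medians. The points of the cluster all lie below 0, around -0.48, and those outside it lie around -0.03.

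The difference was largest in KO pool 4. The median deviation of the 33 genes from their own WT mean was -0.08, 0.25 and -0.19 in the WT pools, and -0.23 in KO pool 2 and -0.69 in KO pool 4. WT pool 9 thus stood highest and KO pool 4 far below the rest, while KO pool 2 lay close to WT pool 11. The same medians over the 100 other genes were -0.04, -0.002 and 0.02 in the WT pools and -0.05 and 0.04 in the KO pools, all close to 0. KO pool 4 held the single lowest value for 29 of the 33 genes, against 27 of the 100 others and 31.8% of all probe sets, and WT pool 9 the single highest for 25, against 21 of the 100 and 26.8% of all. KO pool 4 was also below KO pool 2 for 29 of the 33, against 43 of the 100 and 48.1% of all probe sets.

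The direction held when KO pool 4 or WT pool 9 was left out, each in turn. Taken alone, KO pool 2 was below the WT mean for 31 of the 33 genes (46.7% of all probe sets) and below the lowest WT pool for 18 (23.8% of all probe sets), and KO pool 4 for 32 (46.5% of all probe sets) and 30 (34.4%). WT pool 11 was itself below the WT mean for 30 of the 33 (5509 of 10361 probe sets), about as often as KO pool 2. With both KO pool 4 and WT pool 9 set aside, KO pool 2 was below WT pool 1 for 26 of the 33 (4480 of 10361 probe sets). The median difference there was -0.16. Without WT pool 9 all 33 genes kept a lower mean in KO (48.5% of all probe sets), with a median of -0.34. Against WT pool 1 alone it was 31 of 33 (49.2% of all probe sets) with a median of -0.41, and both KO pools lay below WT pool 1 for 24 of the 33 and 42 of the 100 (29.8% of all probe sets). Both KO pools lay below all 3 WT pools for 16 of the 33 genes and 10 of the 100, against 13.3% of all probe sets, and both lay above for 0 and 1, against 17.5%. In the other 17 genes of the cluster the pools overlapped.

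**Figure D2:**
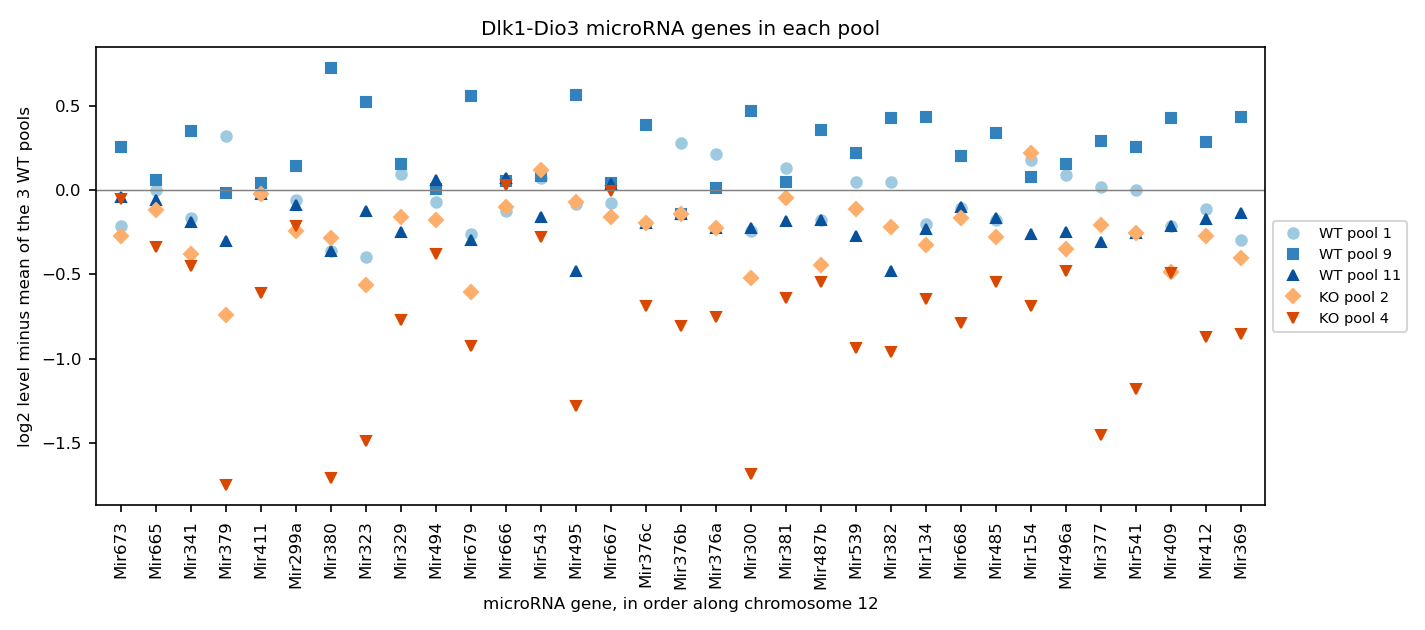
Log2 level of each of the 33 Dlk1-Dio3 microRNA genes in each pool, as the deviation from the mean of the 3 WT pools (vertical axis), with genes in their order along chromosome 12 (horizontal axis). KO pool 4 (red triangles pointing down) is the lowest point for 29 genes and WT pool 9 (squares) the highest for 25, while KO pool 2 (orange diamonds) lies within the WT pools for many.

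Mir379 was the 1 microRNA gene called at adjusted p below 0.05, a level passed by 0.676% of all probe sets and, towards lower values in KO, by 0.328%. Its log2 level was 6.58, 6.24 and 5.96 in the WT pools and 5.52 and 4.51 in the KO pools. Both KO pools lay below every WT pool, and the KO pools were further from each other than the WT pools were. The mean went from 6.26 ± 0.31 (SD, n = 3) to 5.015 ± 0.71 (SD, n = 2), which is lower by 2.37-fold (-1.24 on the log2 scale, SE 0.24, limma adjusted p = 0.0169). The log2 fold change was -0.74 without KO pool 4 (adjusted p = 0.782), -1.75 without KO pool 2 (0.124), -1.08 without WT pool 1 (0.225), -1.25 without WT pool 9 (0.831), and -1.40 without WT pool 11 (2.80e-05), so the call was lost without any 1 of 4 pools. Without KO pool 2 or 4 the KO arm is 1 array, assumed to vary like the WT pools, and 0 of all probe sets passed, Ebf2 included, so the loss there is not particular to Mir379. It was also lost with each array centred on its median (-1.19, adjusted p = 0.364). Without WT pool 11, 7 genes of the cluster passed, against 1.01% of all probe sets, and with a trended robust prior 10 did, against 5.54%.

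Within the cluster Mir300, Mir323 and Mir380 had the next largest differences and did not pass. Mir300 read 7.62, 8.34 and 7.64 in the WT pools and 7.34 and 6.18 in the KO pools (log2 fold change -1.10, SE 0.26, limma adjusted p = 0.0523). Mir323 read 8.20, 9.12 and 8.47 in the WT pools and 8.04 and 7.11 in the KO pools (-1.03, SE 0.25, limma adjusted p = 0.0614). For both genes the KO pools lay below all WT pools, KO pool 2 by a small margin. Mir380, which lies between Mir379 and Mir323, read 7.80, 8.89 and 7.80 in the WT pools and 7.88 and 6.46 in the KO pools (-0.996, SE 0.32, limma adjusted p = 0.143). There KO pool 2 lay inside the WT range, so the difference came from KO pool 4 and from the high WT pool 9. Without KO pool 4 these 3 genes were at -0.52, -0.56 and -0.28.

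Some relatives in sequence had unlike values and others like values. Mir411, with the same 3p seed as Mir379, read 6.92, 6.98 and 6.92 in the WT pools, 6.92 in KO pool 2 and 6.33 in KO pool 4 (log2 fold change -0.32, SE 0.18). KO pool 4 was thus the only pool apart. Mir381, next in sequence to Mir300, read 6.32, 6.24 and 6.005 in the WT pools and 6.14 and 5.55 in the KO pools (-0.34, SE 0.19), again with KO pool 2 among the WT pools. The Mir376 genes had like differences, Mir376a at -0.49, Mir376b at -0.47 and Mir376c at -0.44, and in each of them KO pool 2 equalled at least 1 WT pool to 3 decimals. Differences between members of a pair were not tested.

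Along the cluster the 33 genes form an upstream part of 3 genes near Meg3, Rtl1 and Rian, and a block of 30 genes from Mir379 to Mir369 that spans 34.4 kb. All 32 hairpins with a RefSeq sequence lie on the plus strand. The upstream genes were at -0.16 (Mir673), -0.23 (Mir665) and -0.42 (Mir341). The block had a median of -0.49, with deviations from the WT mean of -0.22 in KO pool 2 and -0.76 in KO pool 4. In the upstream part those medians were -0.27 and -0.34, so KO pool 2 was at a like level in both parts while KO pool 4 was lower in the block.

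Within the block large and small differences lay side by side. Mir679 was at -0.76 (SE 0.22) and read 9.095, 9.91 and 9.06 in the WT pools and 8.75 and 8.43 in the KO pools, both below every WT pool. Mir666, the next measured gene, was at -0.03 (SE 0.17), with KO pools at 9.04 and 9.17 inside the WT range from 9.01 to 9.21. Mir543 (-0.08) and Mir667 (-0.08) were also near 0, while Mir495 between them was at -0.67 (SE 0.28), with 5.02, 5.67 and 4.62 in the WT pools and 5.03 and 3.83 in the KO pools. At the far end Mir377 was at -0.83, Mir541 at -0.72, Mir369 at -0.63 and Mir412 at -0.57. Mir382 (-0.59), Mir539 (-0.53), Mir487b (-0.495), Mir409 (-0.49), Mir134 (-0.49), Mir668 (-0.48), Mir329 (-0.47), Mir496a (-0.42) and Mir485 (-0.41) filled the middle of the range. Mir494 (-0.28), Mir154 (-0.23) and Mir299a (-0.23) were smaller. None of the genes in this paragraph passed (lowest limma adjusted p = 0.105, for Mir679). At unadjusted p below 0.05 there were 23 genes of the cluster, all lower in KO, against 7.17% of all probe sets. That count was 4 without WT pool 9, against 1.64% of all probe sets lower in KO at that level. It was 7 without WT pool 1 (5.86%) and 22 without WT pool 11 (5.0%). With each array centred on its median it was 11 (3.78%), after quantile normalisation 12 (6.36%) and without moderation 0 (2.12%). Without KO pool 2 or KO pool 4 the KO arm is 1 array, so no such count is given. The median log2 fold change of the 33 genes was -0.69 without KO pool 2 and -0.23 without KO pool 4.

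**Figure D3:**
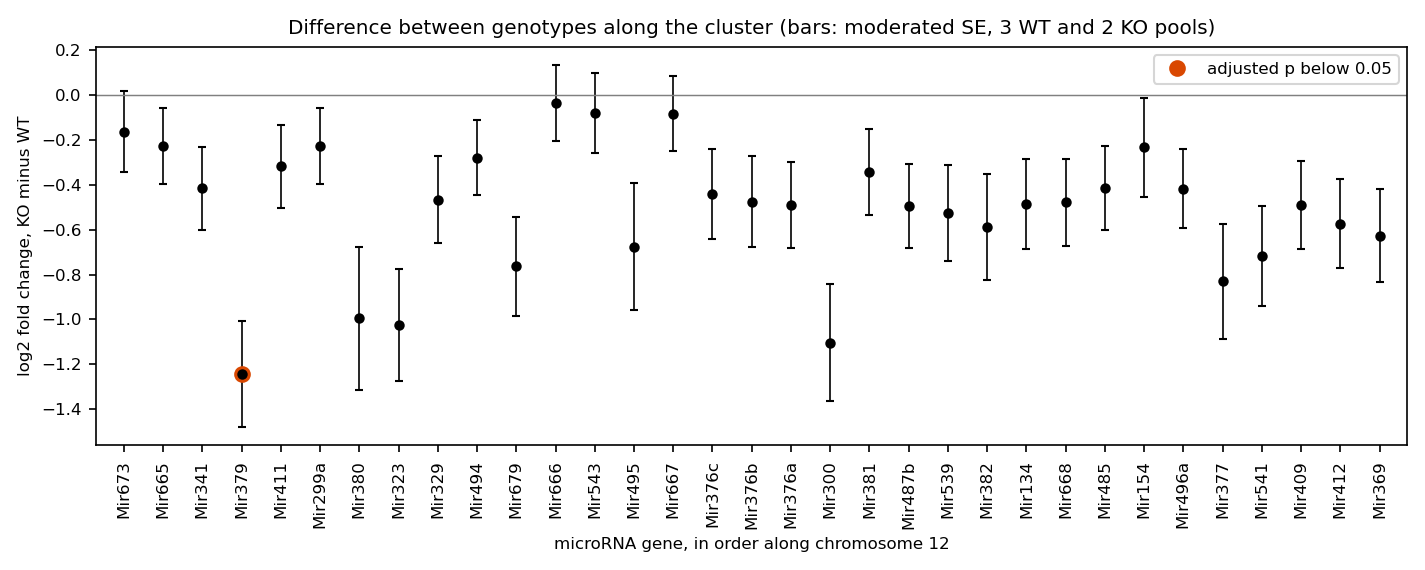
Log2 fold change, KO minus WT, with its moderated SE (vertical axis), for the 33 genes in order along chromosome 12 (horizontal axis), from 3 WT and 2 KO pools. Mir379, in orange, is the 1 gene past adjusted p of 0.05, and genes near 0 such as Mir666 and Mir667 stand between genes with large negative values.

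The long transcripts of the region differed less than many of the microRNA genes along them. Of 7 genes listed for the region, 4 were measured, all 4 had a lower mean in KO, and 0 passed (median log2 fold change -0.20). Meg3, the maternal noncoding RNA at the head of the region, read 12.59, 13.12 and 12.86 in the WT pools and 12.55 and 12.68 in the KO pools (log2 fold change -0.24, SE 0.18, limma adjusted p = 0.559). Rian, the noncoding RNA that hosts Mir341, read 10.14, 9.80 and 9.18 in the WT pools and 9.90 and 9.51 in the KO pools (-0.01, SE 0.22). Neither showed the drop of KO pool 4 below the other pools that the block of 30 had. Rtl1, a retrotransposon-derived gene on the paternal chromosome, read 8.73, 9.47 and 9.00 in the WT pools and 8.61 and 8.64 in the KO pools, both below all WT pools (-0.44, SE 0.20, limma adjusted p = 0.304). Dio3, the deiodinase that inactivates thyroid hormone, was at -0.16 (SE 0.18). Dlk1 and Begain were not analysed here, nor was Mirg, the annotated host of the 7 genes from Mir154 to Mir369.

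Early B cell factors bind the motif CCCNNGGG, which reads the same on both strands. It was searched in windows from 250 bases before to 50 bases after each start in RefSeq. Of 6 such windows for Dlk1, Meg3, Rian, Mirg and Dio3, 1 held it, that of the second start of Meg3, against 13.7% of 32851 windows. A match is a description of the letters only.

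WT pool 9, where the cluster stood highest, also held the highest mean levels of neuron, skeletal muscle, keratinocyte, adipocyte and Schwann cell markers. For the Schwann cell markers the margin was small. Their mean levels were 11.83, 11.97 and 11.90 in the WT pools and 11.63 and 10.97 in the KO pools. Smooth muscle, endothelial, macrophage and fibroblast markers were not highest there. Neuron markers (Nefl, Nefm, Tubb3 and Snap25, 4 of 4 measured) deviated from their WT mean by a median of 0.70 in WT pool 9, against -0.43 in WT pool 1, -0.28 in WT pool 11, -0.46 in KO pool 2 and -0.38 in KO pool 4. Their mean log2 level over the 4 genes was 9.67 in WT pool 9 and from 8.34 to 8.52 in the other 4 pools. Neuron markers thus set WT pool 9 apart, as the Dlk1-Dio3 genes did, and did not set KO pool 4 apart. All 9 skeletal muscle markers were measured, with mean levels of 10.48, 12.06 and 11.90 in the WT pools and 10.92 and 11.15 in the KO pools, and all 8 keratinocyte markers, at 7.40, 9.52 and 8.86 in the WT pools and 7.46 and 7.70 in the KO pools. Both of these marked WT pool 11 as well as WT pool 9, whereas the cluster was low in WT pool 11. The part of these cells in the result was not tested; without WT pool 9 the median of the cluster was -0.34, and 33 of 33 genes were lower.

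KO pool 4, where the cluster stood lowest, was also low in the Schwann cell markers. Sox10, the lineage factor, read 11.24 there and from 11.64 to 11.65 in the other 4 pools. Erbb3, the receptor for neuregulin, read 11.90 there and from 12.53 to 12.75 elsewhere. Egr2, which drives myelination, was called lower (-1.13, limma adjusted p = 0.0181), with 11.19 to 11.53 in the WT pools, 10.72 in KO pool 2 and 9.75 in KO pool 4. The Egr2 call was lost with median centring (adjusted p = 0.364), quantile normalisation (0.343) or no moderation (0.560), against WT pool 1 alone (0.857), and without WT pool 1 (0.177), WT pool 9 (0.831), KO pool 2 (0.119) or KO pool 4 (0.782); the log2 fold change ran from -1.62 to -0.65. All 3 thus had their lowest value in KO pool 4, and their part in the result was not tested. Its array median was 8.93, below the 9.04 to 9.11 of the other pools. With each array centred on its median 32 of the 33 genes were lower (median -0.42).

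**Figure D4:**
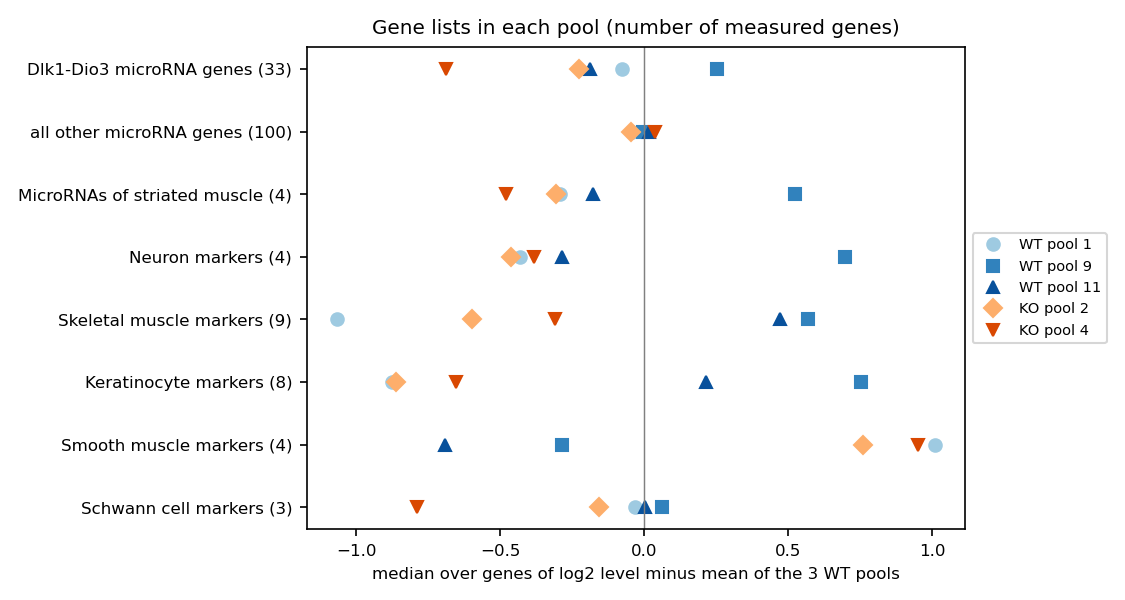
Median over the genes of a list of the log2 level minus the mean of the 3 WT pools (horizontal axis), for each pool and list (rows, with the number of measured genes). WT pool 9 is far right for the Dlk1-Dio3 genes, the muscle microRNAs and the neuron, skeletal muscle and keratinocyte markers. KO pool 4 is far left for the Dlk1-Dio3 genes and the Schwann cell markers. It is also the leftmost pool for the muscle microRNAs, by a smaller margin.

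KO pool 4 differed from KO pool 2 in a way that went with base composition. Across 78 other hairpin genes with a sequence, the log2 level in KO pool 4 minus KO pool 2 was higher where the hairpin held more G and C (Pearson r = 0.53), and across 32 genes of the cluster it did too (r = 0.45). The points share both arrays and are no independent replicates. Among hairpins with at most 50% G and C, the median deviation from the WT mean in KO pool 4 was -0.77 over 23 genes of the cluster and -0.14 over 45 others. Above 50% it was -0.49 over 9 genes of the cluster and 0.08 over 33 others. At either composition the cluster lay lower than the rest, and in both groups the hairpins poor in G and C lay lower in KO pool 4. In KO pool 2 the medians of the cluster were -0.22 and -0.28 for the 2 classes, and those of the others were -0.01 and -0.09. Median G and C was 43.0% in the cluster and 47.7% outside it. The log2 fold change between genotypes was less tied to composition (r = 0.16 in the cluster and 0.21 outside). It averages KO pools whose deviations from the WT mean went with composition in opposite directions. For KO pool 2, r was -0.25 both in the cluster and outside, and for KO pool 4 it was 0.31 and 0.40. The part of base composition in the result was not tested.

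**Figure D5:**
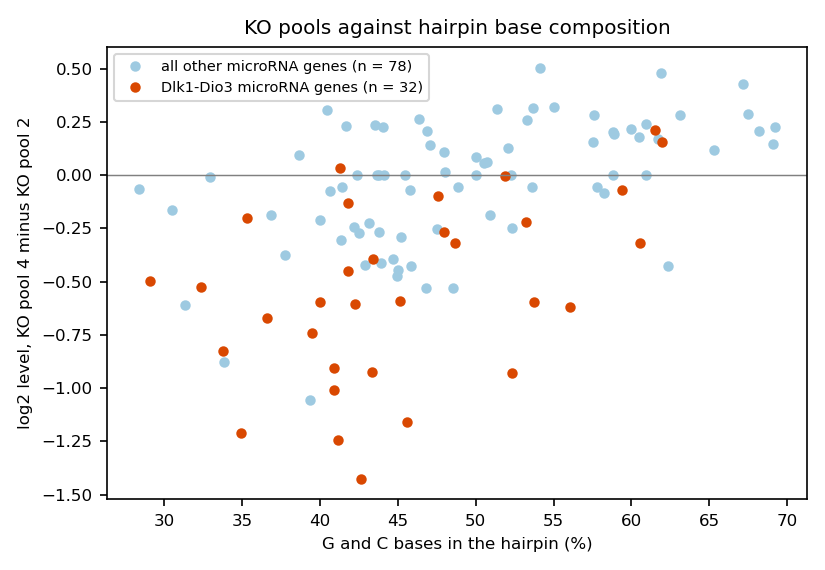
Log2 level in KO pool 4 minus KO pool 2 (vertical axis) against the share of G and C bases in the hairpin (horizontal axis, %), 1 point a gene, for 32 Dlk1-Dio3 genes and 78 others. In both groups the difference is more negative at low G and C (r = 0.45 and 0.53), and the Dlk1-Dio3 genes have the lower median in KO pool 4 both up to and above 50%.

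Outside the cluster 0 of 100 genes passed in the limma fit, and 6 had an unadjusted p below 0.05, 5 lower and 1 higher in KO, against 7.17% and 7.14% of all probe sets. The 5 lowest log2 fold changes were those of Mir15a, Mir1a-1, Mirlet7f-1, Mir1a-2 and Mir186. The 5 highest were those of Mir717, Mir99ahg, Mir145a, Mir9-1 and Mirlet7c-1. Clusters were formed from RefSeq microRNA genes at most 10 kb apart, and 10 outside Dlk1-Dio3 held 2 or more measured hairpin genes, 22 in all. In 4 of the 10 every measured gene had a lower mean in KO, and in 6 the median was below 0.

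Mir15a had the largest difference of the 100 and its neighbour Mir16-1 none of like size. Mir15a read 9.95, 10.35 and 10.31 in the WT pools and 9.80 and 8.60 in the KO pools (log2 fold change -0.9998, SE 0.25, limma adjusted p = 0.0614). Both KO pools lay below all WT pools, but KO pool 2 by little, and the value was -0.40 without KO pool 4. Mir16-1 read 7.21, 6.62 and 6.82 in the WT pools and 6.82 in both KO pools (-0.06, SE 0.18), which overlapped. The mature strands share the seed AGCAGCA, known for repressing cell cycle genes, and Mir16-1 lies in the noncoding gene Dleu2, which was at -0.40 (SE 0.23, limma adjusted p = 0.437). No host was looked up for Mir15a, which had no hairpin sequence here, so Dleu2 does not set the 2 genes apart. The other measured genes with this seed, Mir15b and Mir497, were at 0.22 and -0.07.

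The let-7 genes, which hold cells in a differentiated state, had differences of both signs. Those with the seed GAGGUAG in a sequence used here ran from -0.62 for Mirlet7f-1 through -0.39 for Mirlet7e, -0.10 for Mirlet7d and 0.14 for Mirlet7g to 0.23 for Mirlet7c-1. For Mirlet7a-2 only the 3p sequence was used, so its 5p seed was not compared. Mirlet7f-1 read 6.09, 5.92 and 6.03 in the WT pools, 5.92 in KO pool 2 and 4.86 in KO pool 4. Its difference thus came from KO pool 4. Mirlet7d, its neighbour on chromosome 13, read 8.81, 8.44 and 8.36 in the WT pools and 8.63 and 8.24 in the KO pools. The pair on chromosome 16, Mir99a (0.11) and Mirlet7c-1, and the pair on chromosome 9, Mir100 (-0.17) and Mirlet7a-2 (-0.23), carry related microRNAs and lay on opposite sides of 0. Their host transcripts Mir99ahg (0.46, SE 0.25) and Mir100hg (-0.11, SE 0.18) did so too, and none passed.

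MicroRNAs of striated muscle were highest in WT pool 9, and WT pool 1 was about as low as KO pool 2 (median deviations of -0.29 and -0.31). The median deviation was lowest in KO pool 4, at -0.48. Of 12 listed symbols 4 were measured, all 4 had a lower mean in KO and 0 passed (median -0.41). Mir1a-1 read 4.54, 5.66 and 4.79 in the WT pools and 4.21 and 4.44 in the KO pools (log2 fold change -0.67, SE 0.24, limma adjusted p = 0.187). Its copy Mir1a-2 was at -0.51, the clustered Mir133a-1 at -0.32 and Mir206, which is specific to skeletal muscle, at -0.26. In all 4 genes WT pool 9 stood above every other pool. WT pool 11, where the skeletal muscle markers were nearly as high as in WT pool 9, did not share that: the median deviation of the 4 genes was -0.18 there and 0.52 in WT pool 9.

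MicroRNAs of smooth muscle and the smooth muscle markers were both high in WT pool 1. Mir145a, which promotes the contractile state of smooth muscle, read 8.72, 7.46 and 7.54 in the WT pools and 8.66 and 8.004 in the KO pools (log2 fold change 0.42, SE 0.28, limma adjusted p = 0.5003). Mir143, made from the same transcript, read 8.23, 7.98 and 7.58 in the WT pools and 8.20 and 7.96 in the KO pools (0.15, SE 0.19). For both genes WT pool 1 was the highest, so the genotypes overlapped. The 4 smooth muscle markers (Myh11, Acta2, Cnn1 and Tagln) averaged 10.62, 9.35 and 8.93 in the WT pools and 10.37 and 10.61 in the KO pools. WT pool 1 was thus at the level of both KO pools for the markers. For Mir145a and Mir143 it was near KO pool 2 only, and KO pool 4 was lower. Mir126a, inside the endothelial gene Egfl7, was at -0.17 (SE 0.17), beside 0.25 for Egfl7, and all 4 endothelial markers had a higher mean in KO with 0 passing.

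The measured members of the other fixed groups ran from -0.37 (Mir18) to 0.27 (Mir9-1). In the Mir17-92 cluster, linked to proliferation, Mir18 was at -0.37 (both KO pools below all WT pools), Mir19a at -0.31, Mir20a at 0.03 and Mir19b-1 at 0.05, and the host transcript Mir17hg at -0.35. Of 22 symbols studied in Schwann cells and oligodendrocytes 3 were measured: Mir204 at -0.36 (SE 0.19), inside Trpm3 at -0.55 (SE 0.18), Mir29a at -0.28 (SE 0.17) and Mir210, induced by low oxygen, at 0.06. The epithelial Mir205 was at 0.04, the lymphocyte Mir150 at 0.17, and the neural Mir9-1 and Mir124a-3 at 0.27 and 0.08. Mir717, inside the heparan sulphate proteoglycan gene Gpc3, had the highest log2 fold change of the 100. It read 8.89, 8.42 and 8.27 in the WT pools and 8.91 and 9.14 in the KO pools (0.495, SE 0.19, limma adjusted p = 0.228), both above all WT pools, KO pool 2 by 0.02, while Gpc3 was at 0.22. None of the genes in this paragraph passed.

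The other clusters of 2 lay close to 0: Mir194-1 and Mir215 at 0.10 and 0.15, Mir212 and Mir132, which neuronal activity induces, at -0.04 and 0.05, and Mir421 and Mir374b on the X chromosome at -0.23 and 0.04. MicroRNA genes and their hosts were not closely tied in direction. Of 22 pairs with a measured same-strand host, 12 had the same sign. Mir335 was at -0.18 and its imprinted host Mest at 0.24, and Mir25 was at 0.04 and its host Mcm7, a replication factor, at 0.48, while Mir186 (-0.43) and Zranb2 (-0.31) were both lower.

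None of the measured genes that make and use microRNAs passed the test. Of 27 listed symbols 13 were measured, 0 rose and 0 fell at limma adjusted p below 0.05, 4 had a higher and 9 a lower mean in KO, and the median was -0.06, beside -0.002 over all probe sets. The highest was Tnrc6a, a scaffold of the silencing complex, at 0.31 (SE 0.17), and the lowest Ago3, an Argonaute that holds the mature strand, at -0.29 (SE 0.18). Dicer1, which cuts the hairpin, read 11.13, 10.92 and 11.10 in the WT pools and 11.25 and 10.80 in the KO pools (-0.03, SE 0.18); it is named here after its values were seen. Drosha and Dgcr8 were not analysed here. Of 18 imprinted genes outside the region 9 were measured, 0 passed, 6 had a higher mean in KO and the median was 0.17. Peg10 was highest (0.53, SE 0.17, limma adjusted p = 0.151), and read 12.28, 11.93 and 12.04 in the WT pools and 12.58 and 12.64 in the KO pools. Impact was lowest (-0.33, SE 0.18).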

How the data were processed

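Each of 5 pools was measured on 1 Affymetrix array. The authors deposited a log2 value for each probe set on each array; RMA is named, without version or settings, per the submitters' processing notes, and the array's build is not given in the sources used. In every probe set the fourth-ranked value exceeded the lowest by at least 0.175, as a filter on spread would leave, and no filter is stated. Such a bound leaves out a gene that is high on 1 array only where its other values lie within 0.175 of each other. The reverse pattern, a drop in a single pool, meets the bound, as with the low value of Mir411 in KO pool 4. The gap from the second-lowest to the highest value was 0 at its smallest. The bound thus treats single high and single low values differently. Whether such a filter removed any of the 28 cluster genes not analysed here was not tested. The same value on at least 2 arrays was found in 33.1% of the microRNA probe sets, 21.2% of those of the Dlk1-Dio3 cluster and 27.0% of all.

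Symbols came from the platform annotation dated 2016 (9411 probe sets with 1 symbol, 384 with several, 566 not listed). All 133 genes matched RefSeq (GRCm38.p6) by gene identifier, 119 had a mature sequence used here, and the reference gave names, neighbours and strands. Lists, genes and tests were chosen with earlier results of these data known. Genes were named by a fixed rule: the whole cluster, calls, the 5 largest rises and falls outside it, clusters of 2 or more, the fixed lists and hosts.

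Genotypes were compared with limma 3.58.1 in R 4.3.3 (lmFit, eBayes, no covariates; 3 residual and 17.4 prior degrees of freedom), two-sided, with Benjamini-Hochberg adjustment over 10361 probe sets, and the script was tested on simulated data. Nothing says that pools came from separate litters, so the p-values rest on spread between pools, which may be technical. The number of arrays limits the precision. Alternatives covered scaling, moderation, dim probe sets, each pool left out and WT pool 1 as the only reference.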

Additional observations from a re-analysis of the deposited data

How the results depend on the processing

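The call of Mir379 depended on the fit, and its direction held in all 10 alternatives that gave it a value (Mir379 itself is below the 25th percentile of probe set means and so was not tested under that filter). Its log2 fold change was -1.19 (adjusted p = 0.364) with each array centred on its median, -1.27 (0.360) after quantile normalisation, -1.24 (0.560) without moderation, -1.57 (0.857) against WT pool 1 alone, and from -1.75 to -0.74 with 1 pool left out; with a trended robust prior it passed (3.45e-08).

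Calls among the 133 genes numbered 0 with median centring, quantile normalisation, no moderation or the filter on dim probe sets. That filter left 14 genes of the cluster and 38 others. At unadjusted p below 0.05 these fits gave 14 (11.9% of the probe sets tested), 18 (13.2%), 2 (4.81%) and 13 (17.3%). The p-values are limma's except in the unmoderated fit. Calls numbered 13 with the trended robust prior (10 of them in the cluster, against 5.54% of all probe sets). They ran from 0 to 8 with 1 WT pool left out. The 8 came without WT pool 11, 7 of them in the cluster (1.01% of all probe sets). Over all probe sets the calls numbered 1, 1, 0, 574 and 0 with centring, quantile normalisation, no moderation, the trended prior and WT pool 1 alone, against 70, and from 0 to 105 with 1 pool left out (0 without KO pool 2 or 4, 1 without WT pool 9, 6 without WT pool 1). At unadjusted p below 0.05 these were 1232, 1372, 498, 1760 and 127.

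The median of the cluster stayed negative in all alternatives, from -0.69 to -0.23 with 1 pool left out (-0.23 without KO pool 4). The median of the 100 other genes turned to 0.033 with centring and 0.0164 after quantile normalisation, and ran from -0.051 to 0.038 with 1 pool left out. The filter above the 25th percentile left 14 of the 33 genes, all 14 lower in KO, because 19 lie below it. Clusters at up to 50 kb numbered 12 in place of 10. Leaving out the 3 host transcripts, an alternative chosen after seeing the data, kept the median of the others at -0.03. No called value turned in sign; Ebf2 lost its call in 5 alternatives (no moderation, WT pool 1 alone, and without WT pool 1, KO pool 2 or KO pool 4). The causes of these changes were not tested. No paired analysis was possible because the genotypes share no pool number.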
